A study of Mus musculus with 5 samples.

Results

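The cells described here were T cells with a high level of NF-kB pathway RNA and no RNA of a pair of genes that report engagement of the T cell receptor (TCR). They were chosen by their counts: a barcode, which stands for 1 cell, was a member when it held at least 1 UMI (a unique molecular identifier, 1 captured RNA molecule) of Cd3d, Cd3e or Cd3g, none of Irf4 and Nr4a1, at least 2 of Bcl3, and at least 1 UMI each of 2 or more of Icam1, Relb and Tnip1. Members also passed a filter of 500 UMIs, 300 genes and no more than 10% mitochondrial UMIs per barcode. The rule took 533 of 25623 barcodes. They were set beside 17314 comparators, Cd3-bearing barcodes of the same libraries with no UMI of Bcl3, Irf4 or Nr4a1. Because measured values chose the members, the levels of these genes are a description, and none of the differences below has a test.

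The study cultured naive CD4 T cells of an OT-II mouse, which carry a transgenic receptor for an ovalbumin (OVA) peptide, with antigen-presenting cancer-associated fibroblasts (apCAFs) or without them, and profiled 5 samples by 10x Genomics 5' single-cell RNA sequencing. The T cells were taken from spleen by negative selection, and the apCAFs were sorted from mouse pancreatic tumors. The groups were OT-II cells with sKPC apCAFs and OVA, with rKPC apCAFs and OVA, with sKPC apCAFs and DMSO, with rKPC apCAFs and DMSO, and OT-II cells alone, with 1 sample each, sKPC and rKPC being tumor clones. The deposited counts carried 5 library suffixes, called Ga, Gb, Gc, Ha and Hb here, and the labels do not say which sample a suffix is. Each value below therefore belongs to 1 unassigned library, and what sets the libraries apart cannot be put down to coculture, clone or OVA. Where 5 values follow each other, they are those of Ga, Gb, Gc, Ha and Hb in that order. Levels are in CPM, the UMIs of a gene scaled to counts-per-million within the set and library.

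NF-kB is a family of paired transcription factors built from the proteins of Nfkb1, Nfkb2, Rel, Rela and Relb. In resting cells, inhibitors such as the IkB-alpha protein of Nfkbia hold the dimers in the cytoplasm. Receptors for antigen, TNF, interleukin 1 and microbial products free them through IkB kinases, and the freed dimers then switch on their own inhibitors, adhesion molecules and survival genes. In T cells the TCR is the best known of these triggers and also induces Irf4 and the orphan nuclear receptor Nr4a1 through other branches. Bcl3 encodes an atypical nuclear IkB protein that works with p50 and p52 dimers, Relb the partner of p52, Icam1 an adhesion molecule that binds LFA-1, and Tnip1 a partner of the A20 inhibitor.

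The promoters of 4 genes with higher levels in members are shown first. They were picked because each holds a kB-like motif, the sequence to which NF-kB dimers bind, so their matches are no evidence about the other genes. Capitals mark GGG, any 3 bases and TTCC, on either strand. The windows run from 250 bases before to 50 after a transcript start, which need not be the start of the gene, and come from RefSeq on GRCm38.p6. They lie at chr12:55492598-55492897 (minus strand) for Nfkbia, chr19:46304487-46304786 (plus) for the first of several Nfkb2 windows, chr5:92348840-92349139 (minus) for Cxcl10 and chr3:142496684-142496983 (plus) for Gbp5.
Nfkbia: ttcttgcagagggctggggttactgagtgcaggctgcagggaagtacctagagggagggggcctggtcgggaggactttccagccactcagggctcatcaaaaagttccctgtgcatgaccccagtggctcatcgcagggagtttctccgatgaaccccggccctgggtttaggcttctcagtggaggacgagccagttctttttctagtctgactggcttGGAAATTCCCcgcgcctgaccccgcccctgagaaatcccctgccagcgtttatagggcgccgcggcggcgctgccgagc
Nfkb2: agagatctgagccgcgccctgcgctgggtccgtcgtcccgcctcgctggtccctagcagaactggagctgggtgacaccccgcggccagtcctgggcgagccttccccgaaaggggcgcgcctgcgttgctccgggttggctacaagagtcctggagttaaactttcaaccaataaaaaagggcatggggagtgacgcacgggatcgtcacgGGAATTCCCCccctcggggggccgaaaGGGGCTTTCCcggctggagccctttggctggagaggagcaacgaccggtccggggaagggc
Cxcl10: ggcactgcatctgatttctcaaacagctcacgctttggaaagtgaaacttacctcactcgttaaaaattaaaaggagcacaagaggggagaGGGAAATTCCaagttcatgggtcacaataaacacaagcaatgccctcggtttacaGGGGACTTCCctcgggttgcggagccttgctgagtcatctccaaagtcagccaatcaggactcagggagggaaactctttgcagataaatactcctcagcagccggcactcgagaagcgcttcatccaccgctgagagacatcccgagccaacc
Gbp5: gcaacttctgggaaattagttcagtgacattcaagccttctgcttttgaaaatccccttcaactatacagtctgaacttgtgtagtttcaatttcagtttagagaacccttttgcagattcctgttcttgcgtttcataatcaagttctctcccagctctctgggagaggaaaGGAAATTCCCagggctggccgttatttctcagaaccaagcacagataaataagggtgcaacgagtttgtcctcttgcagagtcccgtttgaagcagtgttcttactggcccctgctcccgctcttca
The Cxcl10 and Nfkb2 windows each held 2 such matches, and those of Nfkbia and Gbp5 held 1 each. The stricter motif was in 5.56% of all 32851 promoter windows in the table and was chosen after seeing the data. The looser motif GGG, any 5 bases and CC, searched on both strands as well and holding every match of the stricter motif, was in 50.8% of all windows, so its presence in all 5 of the gate genes and markers that had a window (Bcl3, Birc3, Icam1, Nfkbia and Tnip1) says little. Of the 15 genes that led the comparison without other-type barcodes, described below, 12 had a window. The stricter motif was in 5 of these, namely Cxcl10, Gbp5, Il2ra, Nfkbia and Nfkbie, and not in the others. A match is a description of the letters and not of binding.

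Members were found in every library, with 125, 36, 254, 68 and 50 barcodes. Gc had the highest share, with members at 3.96% of its Cd3-bearing barcodes (95% Clopper-Pearson interval 3.5 to 4.47), followed by Ga with 2.39% (1.99 to 2.84). Ha had 1.62% (1.26 to 2.05), Hb had 1.27% (0.946 to 1.67) and Gb had 1.17% (0.820 to 1.62). The share in Gc lay above that of each other library. The intervals of Gb, Ha and Hb overlapped, and those of Ga and Ha did so slightly. The intervals, like all others here, cover counting error only. With every barcode thinned to 5000 UMIs the gate was met by 0.751%, 0.283%, 1.46%, 0.630% and 0.385%, taken by library. The base was the 20903 Cd3-bearing barcodes that were deep enough and kept a Cd3 UMI. The whole gate was applied to thinned counts, so a barcode could also meet it by losing its Irf4 or Nr4a1 UMIs. How many did so was not counted. The count depends on depth. Gc stayed highest, with a thinned interval of 1.17 to 1.80. The thinned intervals of Ga (0.526 to 1.04) and Ha (0.404 to 0.936) overlapped, so which came second is not settled. Ga and Gc were also the libraries with the most TCR responses. An Irf4 or Nr4a1 UMI was in 25.3% of Cd3-bearing barcodes in Ga and 22.5% in Gc, against 2.21% in Gb, 2.05% in Ha and 1.30% in Hb. The part of those responding cells in the higher member share was not tested.

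**Figure D1:**
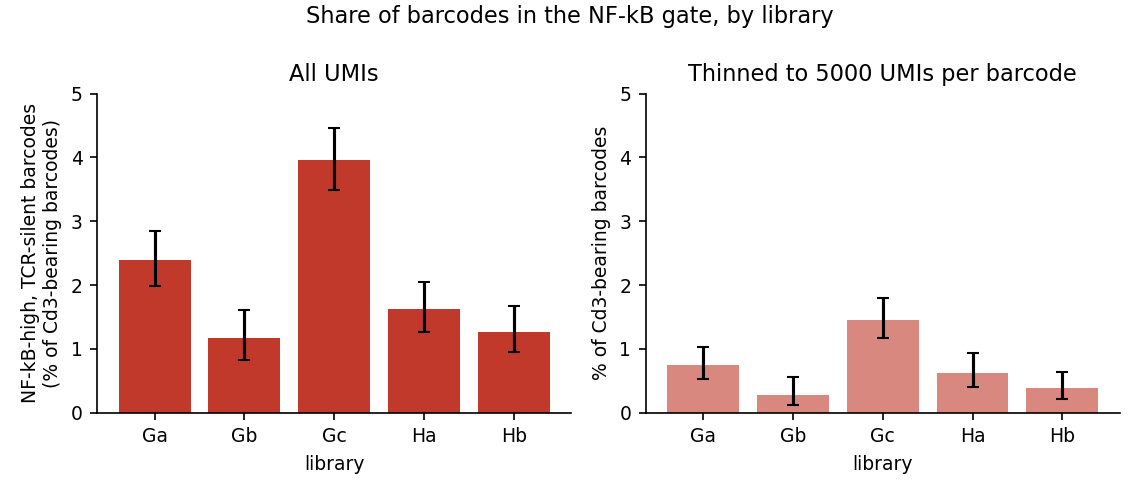
Share of Cd3-bearing barcodes that met the NF-kB gate without Irf4 or Nr4a1, by library, with all UMIs (left) and after thinning each barcode to 5000 UMIs (right). Bars are the share in percent and error bars its 95% Clopper-Pearson interval. Gc is highest in both panels, at 3.96% and 1.46%.

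The median member was slightly deeper than the median comparator, and a few members carried many UMIs of other cell types' markers. The shallowest member held 4391 UMIs and the shallowest comparator 500. The median member held 9629, 9270.5, 9119.5, 8510 and 9416.5 UMIs, against 8329, 7836, 8114, 8271.5 and 8175 UMIs for the median comparator. The member with the most UMIs, in Gb, held 154159 of that library's 492456 member UMIs, with 972 of fibroblast markers. The next 3, in Hb, Ga and Gc, held 865, 855 and 431 UMIs of myeloid markers. That of Hb held 78952 of the library's 556474 member UMIs. Levels over all members of Gb and Hb therefore rest in part on 1 barcode each. All 345 member UMIs of the collagen gene Col1a1 lay in 1 barcode. Over the lists, fibroblast markers summed to 0 to 1978 CPM in member libraries and 0.835 to 3.01 CPM in comparators, and myeloid markers to 5.97 to 1558 CPM in members and 4.75 to 46.8 CPM in comparators. The same sums were 5.90 to 68.7 and 3.73 to 5.38 CPM for dendritic markers, 0 to 120 and 1.57 to 22 CPM for neutrophil markers, 1.49 to 164 and 6.07 to 9.05 CPM for B cell markers, and 26.4 to 190 and 29.2 to 39.2 CPM for NK markers. Of the dendritic markers, Siglech and Itgax were at 0 in members, Xcr1 had 3 UMIs, Flt3 34 in 10 members and Zbtb46 85 in 24. Siglech and Itgax were rare in comparators too, with 17 and 19 UMIs, so their 0 says little. Of the NK markers, Ncr1 was at 0 in members. Klre1, Klrb1c, Eomes, Klrk1 and Tyrobp had 6, 18, 29, 49 and 338 UMIs, those of Tyrobp in 12 members. Barcodes with at least 2 UMIs over the B cell, myeloid, dendritic, neutrophil, erythroid and fibroblast markers were 99 of the 533 members (18.6%) and 2430 comparators (14.0%), and without erythroid markers 30 (5.63%) and 403 (2.33%). The count over all genes and several lists and genes are therefore also given without such barcodes, for 434 members and 14884 comparators. In these, fibroblast markers summed to at most 1.02 CPM and myeloid markers to at most 3.5 CPM in any member library. The filter itself fixes these low sums, so they do not show that other cells are absent. NK markers were not part of it. Between 2 and 14 barcode sequences were shared by a pair of libraries, and 4 of the shared ones were members.

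The T cell and OT-II labels were checked against their defining genes. Trac, the constant region of the alpha chain, stood at 6908, 5334, 3632, 7634 and 6814 CPM in members, against 6732, 6683, 3428, 7247 and 6714 CPM in comparators. Gc was low in both sets. The beta chain of the OT-II receptor uses a Trbv12 segment, and the 2 segments of that family took 166 of 302 beta V segment UMIs in members, or 55.0% (49.2 to 60.7), and 56.1% (55.1 to 57.1) in comparators. The alpha chain uses the Trav14 family, which took 29 of 213 alpha V segment UMIs in members, or 13.6% (9.31 to 19.0), and 10.1% (9.44 to 10.8) in comparators. So the alpha segment of the transgene was a minority of the alpha V UMIs counted in both sets, and the other V segments were present as well. How the counting assigned reads of the transgene to V segments was not stated. Cd4 stood at 128, 140, 158, 257 and 135 CPM in members, against 200, 226, 197, 254 and 229 CPM in comparators. The members were lower in every library but Ha. Without other-type barcodes the directions were the same, and in Gb members stood at 194 CPM (147 to 252) and comparators at 231 CPM.

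Across genes, the UMIs observed in members were set against those expected from the comparators of the same library at the members' totals, and the ratio of the sums over the 5 libraries is given on the log2 scale with 0.5 added to each. Genes with observed plus expected UMIs of at least 40 were compared, and 2-fold counted as higher or lower. Over 10775 genes, 557 were higher, or 5.17%, and 30 were lower, or 0.278%. Without other-type barcodes 82 of 9775 were higher, or 0.839%, and 27 were lower, or 0.276%. Among genes alike in direction in Ga and Gc, the 15 with the highest ratio over all members, led by Slit3 and Clec4e, had UMIs in 3 to 7 members each, and 1 member held 490 of the 494 UMIs of Slit3.

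The gate genes describe how the members were chosen. Bcl3 stood at 173 to 266 CPM over the member libraries. Icam1 stood at 92.8 to 191 CPM in members and 23.2 to 26.7 CPM in comparators, Relb at 225 to 282 CPM and 39.2 to 79.5 CPM, and Tnip1 at 286 to 322 CPM and 86.6 to 119 CPM. Bcl3 and Relb lie near each other on chromosome 7, at 19808462 to 19822770 and 19606217 to 19629438 (GRCm38). At the threshold, the 264 members without other-type UMIs and with exactly 2 Bcl3 UMIs differed little from the 663 such barcodes with 1 Bcl3 UMI that met the rest of the gate. Of 8836 genes 16 were 2-fold higher, or 0.181%, and 25 were 2-fold lower, or 0.283%, and Nfkbia stood 0.12 higher on the log2 scale, Cd69 0.39 and Il2ra 1.0. The 159 members with all 3 of Icam1, Relb and Tnip1 against the 275 with 2 of them had 38 of 7737 genes 2-fold higher, or 0.491%, and 43 lower, or 0.556%, with Il2ra 1.90 and Cd69 0.72 higher. The barcodes with 1 Bcl3 UMI had 57 of 10531 genes higher than the comparators, or 0.541%, and 19 lower, or 0.18%. They stood above the comparators by 1.53 for Nfkbia, 1.57 for Cd69 and 1.61 for Gbp5.

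Many NF-kB genes outside the gate stood higher in the members. Of the 16 listed factors and inhibitors, all compared, 7 were 2-fold higher, against 5.17% of all genes, and none was 2-fold lower. The median log2 ratio was 0.85 against 0.02 over all genes. Without other-type barcodes 6 of 15 were higher, against 0.839% of all genes, with a median of 0.86. The summed list stood at 2021, 1590, 2229, 2311 and 2165 CPM in members, against 1174, 990, 1194, 1025 and 959 CPM in comparators. Every member library lay above every comparator library. Per barcode, 332 of 434 members without other-type UMIs, or 76.5%, lay above the upper quartile of their library's comparators.

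The inhibitors were among the most raised members of this list. Nfkbia, which encodes IkB-alpha (ENSMUSG00000021025, chromosome 12, 55489410 to 55492647, GRCm38), stood at 378, 396, 408, 534 and 496 CPM in members, against 135, 103, 132, 111 and 102 CPM in comparators. Its log2 ratio was 1.76 (counting interval 1.70 to 1.82), and 1.84 without other-type barcodes. Of those without other-type UMIs, 431 of 434 members and 13592 of 14884 comparators could be thinned to 5000 UMIs, and 76.1% of these members and 39.1% of comparators held a UMI of Nfkbia, with 89.2% and 51.4% before thinning. Of 12 thinned erythroid barcodes, which should hold little of it, 1 did (8.33%). Nfkbie, which encodes IkB-epsilon, stood at 50.9, 22.3, 37.6, 52.3 and 59.3 CPM in members, against 16.6, 12.0, 15.4, 12.7 and 12.1 CPM in comparators, a log2 ratio of 1.55. Nfkbid and Nfkbib, further IkB genes, stood 1.13 and 0.87 higher, and Nfkbiz, an atypical IkB gene like Bcl3, 0.74 higher. Zc3h12a, an RNase that degrades inflammatory mRNAs, was 1.30 higher. Tnfaip3, which encodes A20, was 0.61 higher, below 2-fold, and Cyld, a deubiquitinase, stood at 0.10. Tnip2 stood at -0.32 and was higher in 1 of 5 libraries. Tnip3 rested on 32 UMIs in 9 barcodes, at 1.28 over all members and -0.39 without the 5 members with the most UMIs.

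The subunits differed in size. Nfkb1, which encodes p105 and p50, stood at 600, 376, 679, 511 and 469 CPM in members, against 277, 203, 278, 184 and 196 CPM in comparators, a log2 ratio of 1.24 and 1.35 without other-type barcodes. For Nfkb2, which encodes p100 and p52, the values were 68.6, 60.9, 68.6, 91.1 and 77.3 CPM in members, against 30.4, 17, 29.7, 20.8 and 15.9 CPM in comparators, a log2 ratio of 1.43, and 1.44 without other-type barcodes, and higher in every library. The activating subunits Rel and Rela were less raised, with log2 ratios of 0.83 and 0.61, and both were higher in 5 of 5 libraries. Among 22 signal transducers 1 was 2-fold higher, against 5.17% of all genes, with a list median of 0.12. Without other-type barcodes 2 were higher, against 0.839% of all genes, with a median of 0.10. Map3k8, a kinase held in complex with p105, stood at a log2 ratio of 1.48 and 1.45 without other-type barcodes, and the kinase Ikbke at 0.99 and 1.03. The adaptor Traf3 stood at 0.91.

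**Figure D2:**
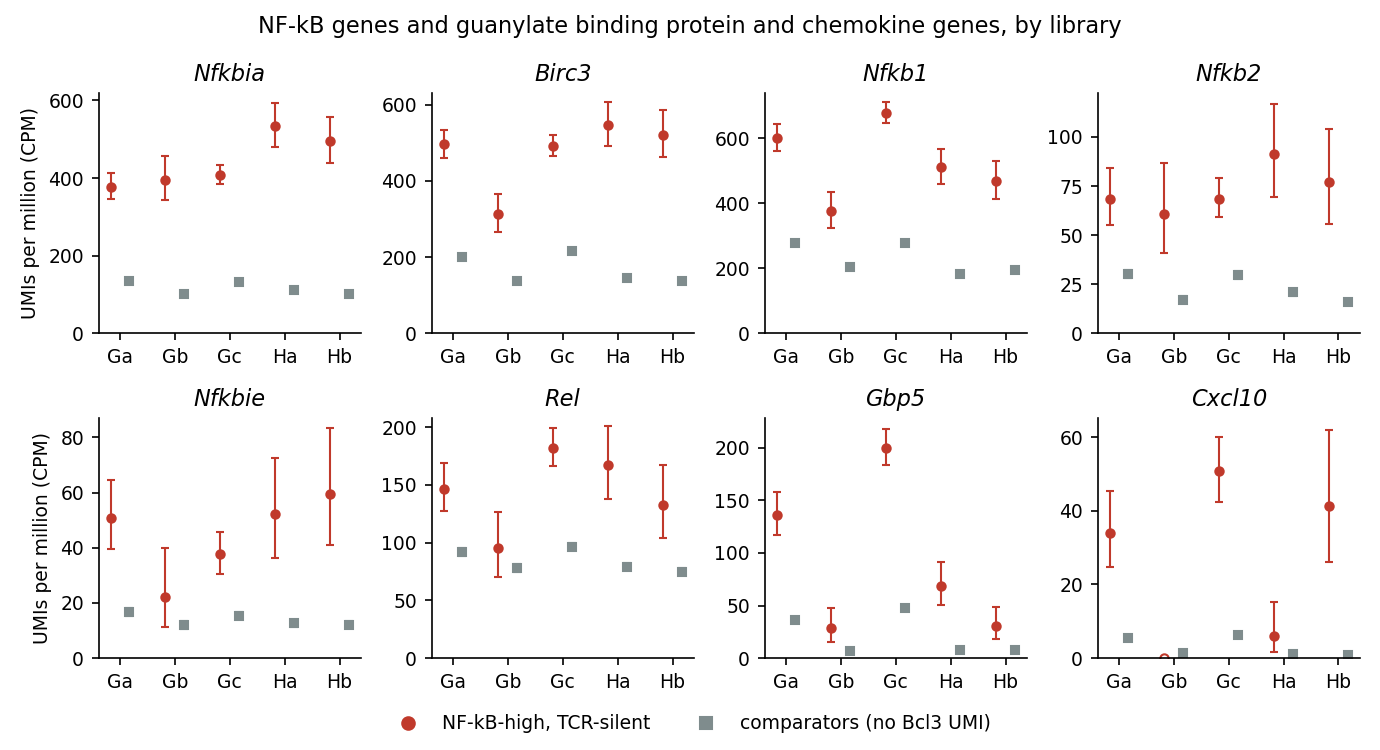
Level of NF-kB factors and inhibitors, the survival gene Birc3, the GTPase gene Gbp5 and the chemokine gene Cxcl10 in members (red circles) and comparators (grey squares) of each library, in CPM. Error bars are 95% Poisson intervals and open symbols are counts of 0. Nfkbia stands at 378 to 534 CPM in members and 102 to 135 CPM in comparators.

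Of 25 compared NF-kB target genes for survival, adhesion and cytokines, 13 were 2-fold higher in members, against 5.17% of all genes. The list median was 1.02. Without other-type barcodes 6 of 21 were higher, against 0.839% of all genes, and the median was 0.55. The part of barcodes with other cell types' markers in the larger count was not tested. The median was 0.25 within the members' UMI quartiles and 0.28 with no UMI of 6 further TCR genes. It was 0.44 with each barcode weighing equally. Among barcodes with a Cd4 UMI and none of Trdc, Cd8a, Cd8b1 and Foxp3 it was 0.97. There 8 of 19 targets were 2-fold higher, against 134 of all 8882 genes. Birc3, which encodes the apoptosis inhibitor cIAP2, stood at 496, 313, 492, 546 and 521 CPM in members, against 199, 138, 215, 146 and 138 CPM in comparators, a log2 ratio of 1.36 and 1.47 without other-type barcodes. The death receptor gene Fas stood at 76.0, 50.8, 93.2, 59.7 and 52.1 CPM in members, against 24.9, 24.6, 27.1, 24.3 and 24.8 CPM in comparators, a log2 ratio of 1.58 and 1.65 without other-type barcodes. Member and comparator libraries did not overlap for either gene. The kinase gene Pim1 stood 1.23 higher, the syntaxin gene Stx11 1.69 and the stress sensor gene Gadd45b 2.01. Gadd45b had 29 of its 216 UMIs in 1 barcode. The adaptor gene Traf1 stood 0.84 higher and the cytokine gene Ltb 0.45. Tnf stood 1.68 higher, and 0.90 without other-type barcodes. Among 13 receptors of the TNF and interleukin 1 families 2 were 2-fold higher, against 5.17% of all genes, and the median was 0.32. Without other-type barcodes 2 of 12 were higher, against 0.839% of all genes, with a median of 0.26. Tnfrsf9, which encodes 4-1BB, stood at 38.3, 0, 28.3, 0 and 5.39 CPM in members, against 15.2, 2.52, 9.83, 7.29 and 2.21 CPM in comparators.

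The genes of the TCR response did not move as 1 group, so the label "without TCR response" names the rule and not the whole list. Irf4 and Nr4a1 are 0 by the rule in members and comparators alike. A ratio near 0 for another TCR gene may follow from that and does not show that the label held. Some of these genes were also rare. Without other-type UMIs and after thinning, Nr4a3 was in 1.16% of members and 1.37% of comparators, and Egr1 in 1.86% and 1.82%. Nr4a3, an orphan nuclear receptor like Nr4a1, stood at 5.16, 2.03, 3.35, 7.46 and 0 CPM in members, against 4.39, 1.93, 4.32, 3.63 and 1.72 CPM in comparators, a log2 ratio of 0.01 (-0.67 to 0.61). Egr1, an immediate early gene, stood at 0.52 over all members and -0.17 without other-type barcodes. Myc, the growth regulator, stood at 0.18 and -0.08, with 28.4 CPM in members of Gb and 1.49 to 6.71 CPM in the other member libraries. Nfatc1, an NFAT factor, stood at 65.6, 58.9, 61.5, 80.6 and 75.5 CPM in members, against 99, 101, 95.5, 111 and 103 CPM in comparators, a log2 ratio of -0.59, lower in every library.

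The activation markers stood higher. Cd69, an early activation antigen that opposes exit from lymphoid tissue, stood at 105, 108, 120, 91.1 and 156 CPM in members, against 27.0, 19.2, 30.3, 15.1 and 14.9 CPM in comparators. Its log2 ratio was 2.18 (2.07 to 2.30), or 4.54-fold, and 2.28 without other-type barcodes. A UMI was in 29.2% of thinned members and 7.02% of thinned comparators without other-type UMIs, 38.2% and 10.0% before thinning, and in 0 of 12 erythroid barcodes. Il2ra, the alpha chain of the interleukin 2 receptor, stood at 44.2, 46.7, 98.4, 26.9 and 88.1 CPM in members, against 20.3, 5.93, 26.4, 7.58 and 3.70 CPM in comparators, a log2 ratio of 1.93 and 1.99 without other-type barcodes, with UMIs in 86 members. Both genes were higher in all 5 libraries, those with few TCR responses included. Junb and Batf, AP-1 family factors, stood 1.08 and 0.97 higher. Over the list, 5 of 17 genes were 2-fold higher, against 5.17% of all genes, none was 2-fold lower, and the median was 0.57. Irf8 was among these 5 at 2.02 and stood at 0.72 without other-type barcodes. Without other-type barcodes 4 of 15 were higher, against 0.839% of all genes, with a median of 0.55. The list median depended on the weighting and choice of barcodes. With each barcode weighing equally it was 0.04, with 4 of 16 higher, against 133 of all 10429 genes. Among barcodes with a Cd4 UMI and none of Trdc, Cd8a, Cd8b1 and Foxp3 it was 0.87. There 7 of 14 were higher, against 134 of all 8882 genes. Within the members' UMI quartiles the list median was 0.58, with 5 of 12 higher, against 64 of all 8711 genes.

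**Figure D3:**
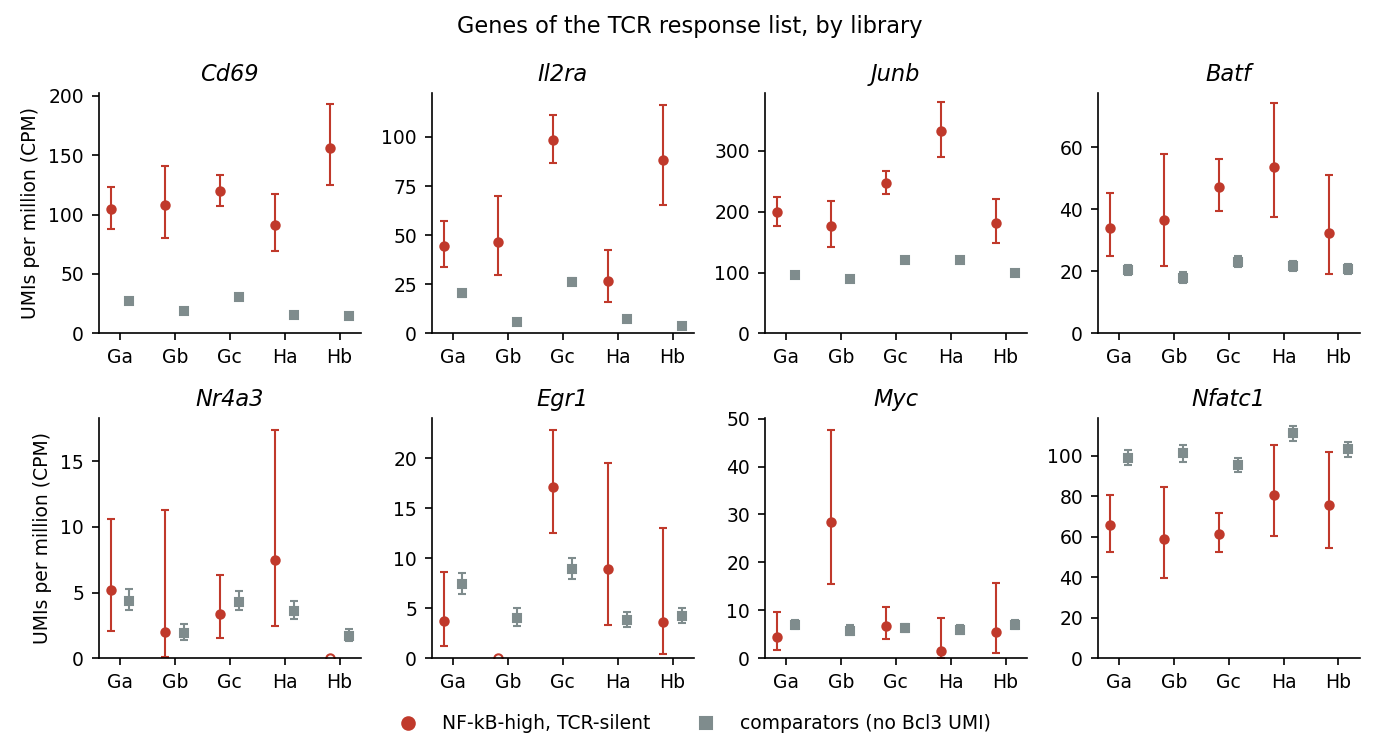
Level of 8 genes of the TCR response list in members (red circles) and comparators (grey squares) of each library, in CPM. Error bars are 95% Poisson intervals and open symbols are counts of 0. Cd69 stands at 91.1 to 156 CPM in members and 14.9 to 30.3 CPM in comparators, while Nfatc1 is lower in members of every library.

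Most genes of the interferon gamma response stood higher in members, a minority of them by 2-fold. Of 20 genes 17 had a ratio above 0, as did 5701 of all 10775 genes, and the median was 0.42. By 2-fold 2 were higher, against 5.17% of all genes. Without other-type barcodes 18 of the 20 had a ratio above 0, as did 4774 of 9775 genes, and the median was 0.48. Then 4 were 2-fold higher, against 0.839% of all genes. The summed list stood at 4131, 1458, 5150, 1953 and 2077 CPM in members, against 3197, 1427, 3566, 1401 and 1489 CPM in comparators. In Gb the comparators' level lay within the members' counting interval (1353 to 1569 CPM), while without other-type barcodes the Gb sums were 2220 CPM in members and 1425 CPM in comparators. Gbp5, a guanylate binding protein of cell-autonomous defense, stood at 136, 28.4, 200, 68.7 and 30.5 CPM in members, against 36.4, 7.15, 48.0, 7.61 and 7.50 CPM in comparators, a log2 ratio of 2.06 and 2.15 without other-type barcodes. Comparators of Ga and Gc lay above those of the other libraries, and members of Gb and Hb lay below comparators of Ga and Gc. Gbp2, Gbp4 and Irf1 stood at 0.97, 0.99 and 0.91 and were higher in every library, and Cd274, which encodes PD-L1, at 1.01. The chemokine gene Cxcl10, which was not in the list, stood at 33.9, 0, 50.7, 5.97 and 41.3 CPM in members, against 5.45, 1.35, 6.30, 0.996 and 0.991 CPM in comparators, a log2 ratio of 2.97, and 3.16 without other-type barcodes, with UMIs in 60 members. The type I interferon list had 0 of 13 genes at 2-fold and a median of 0.01, and also 0 of 13 without other-type barcodes, with a median of 0.03. The cytokine and STAT list had 2 of 17 higher, against 5.17% of all genes, with a median of 0.07. Without other-type barcodes it had 1 of 16, against 0.839% of all genes, with the same median. Cish, a feedback inhibitor of cytokine receptors, stood at 2.02 and 2.04 without other-type barcodes.

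Naive T cell genes stood close to the comparators. Of 20 genes 1 was 2-fold higher, near the 5.17% of all genes, and none was 2-fold lower, with a median of -0.19. Without other-type barcodes 0 of 19 were 2-fold apart and the median was -0.11. S1pr1, the receptor that guides exit from lymphoid tissue, stood at 400, 307, 418, 476 and 390 CPM in members, against 567, 603, 574, 594 and 628 CPM in comparators, a log2 ratio of -0.51. Klf2, its transcriptional activator, stood at -0.30 and -0.16 without other-type barcodes. Ccr7, the lymph node homing receptor, stood at 0.54 and Btg1, a quiescence factor, at 0.48. Growth and ribosome biogenesis genes had a median of 0.21, stress genes of 0.38, helper lineage genes of -0.08 and integrins of -0.20. Without other-type barcodes these were 0.04, 0.12, -0.16 and -0.18.

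Genes of other T cell subsets were also read in members. Foxp3, the factor of regulatory T cells, was in 14 of the 533 members and stood at 34.7, 6.09, 11.9, 0 and 10.8 CPM in members, against 8.96, 4.27, 6.81, 6.81 and 2.58 CPM in comparators, a log2 ratio of 1.18 that rests on those 14 barcodes. The gamma-delta receptor gene Trdc stood at 128, 87.3, 61.5, 124 and 146 CPM in members, against 114, 104, 107, 121 and 116 CPM in comparators, a log2 ratio of -0.23. Without other-type UMIs, a Trdc UMI was in 16.5% of thinned members and 17.7% of thinned comparators, 21.7% and 20.7% before thinning, and in 0 of 12 erythroid barcodes. When only barcodes with a Cd4 UMI and none of Trdc, Cd8a, Cd8b1 and Foxp3 were kept, 266 members were left.

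Without other-type barcodes, and among genes alike in direction in Ga and Gc, the 15 with the highest ratio had UMIs in 19 members (Lad1, a basement membrane gene) to 387 members (Nfkbia). Hivep1, a zinc finger protein that binds kB-like motifs, stood at 181, 108, 163, 203 and 122 CPM in all members, against 57.0, 47.8, 60.1, 48.0 and 48.4 CPM in comparators, a log2 ratio of 1.55 and 1.58 without other-type barcodes. The NKG2D ligand gene Ulbp1 stood 1.70 higher and the sortilin family receptor gene Sorcs2 1.74, both in 5 of 5 libraries. The lowest such genes were Hs6st3, a heparan sulfate sulfotransferase gene, at -3.09 with 6 UMIs in members, and Gpm6b, a membrane glycoprotein gene, at -2.32. Over all members the lowest ratios included those of the basophil gene Mcpt8, at -4.85, and the hemoglobin gene Hba-a2, at -4.70. Beside them, erythroid markers summed to 34.7 to 63.0 CPM in member libraries and 61.2 to 1387 CPM in comparator libraries.

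Finally, the members were set beside barcodes that met the same Bcl3, Icam1, Relb and Tnip1 gate but held a UMI of Irf4 or Nr4a1, called TCR responders here. There were 47 responders in Ga and 103 in Gc, and 3 or 4 in each other library, so only Ga and Gc were used. Over all members of these libraries, 471 of 10349 genes were 2-fold higher than in responders, or 4.55%, and 1316 were lower, or 12.7%. Without other-type barcodes, 305 members were compared with 105 responders. Of 9199 genes 346 were 2-fold higher in members, or 3.76%, and 612 were 2-fold lower, or 6.65%. Irf4 and Nr4a1 split the sets, so the direction of the TCR response list is a description.

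Some NF-kB genes stood close to the responders and others stood below them. The values here are without other-type barcodes, where 3.76% of all genes were 2-fold higher in members and 6.65% were 2-fold lower. Of 15 NF-kB factors and inhibitors 0 were 2-fold higher and 3 (Nfkb1, Rel and Nfkbid) were lower, with a median of -0.18. Nfkbia stood at 387 CPM in Ga members and 421 in Gc members, against 572 and 403 CPM in responders, a log2 ratio of -0.18. Birc3 stood at 527 and 513 CPM in members, against 463 and 533 CPM in responders, a log2 ratio of 0.03, and Gbp5 at a log2 ratio of -0.14. Nfkb1 differed more, at 642 and 724 CPM in members, against 2241 and 1580 CPM in responders. Of 23 NF-kB targets 0 were 2-fold higher and 10 were lower, with a median of -0.49. Bcl2l1, which encodes the survival protein Bcl-xL, stood at 19.3 and 23.9 CPM in members, against 404 and 118 CPM in responders, a log2 ratio of -3.29, and Gadd45b stood at -2.47. Of 21 TCR response genes 18 were 2-fold lower with a median of -2.59, and Cd69 stood at 103 and 134 CPM in members, against 791 and 418 CPM in responders. Cd69 in members thus lay between comparators and responders in both libraries. Of 16 growth genes 10 were lower with a median of -1.46, and of 19 naive genes 5 were higher with a median of 0.53. All 3 compared gamma-delta genes were higher with a median of 1.5, and of 20 interferon gamma genes none was 2-fold apart.

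**Figure D4:**
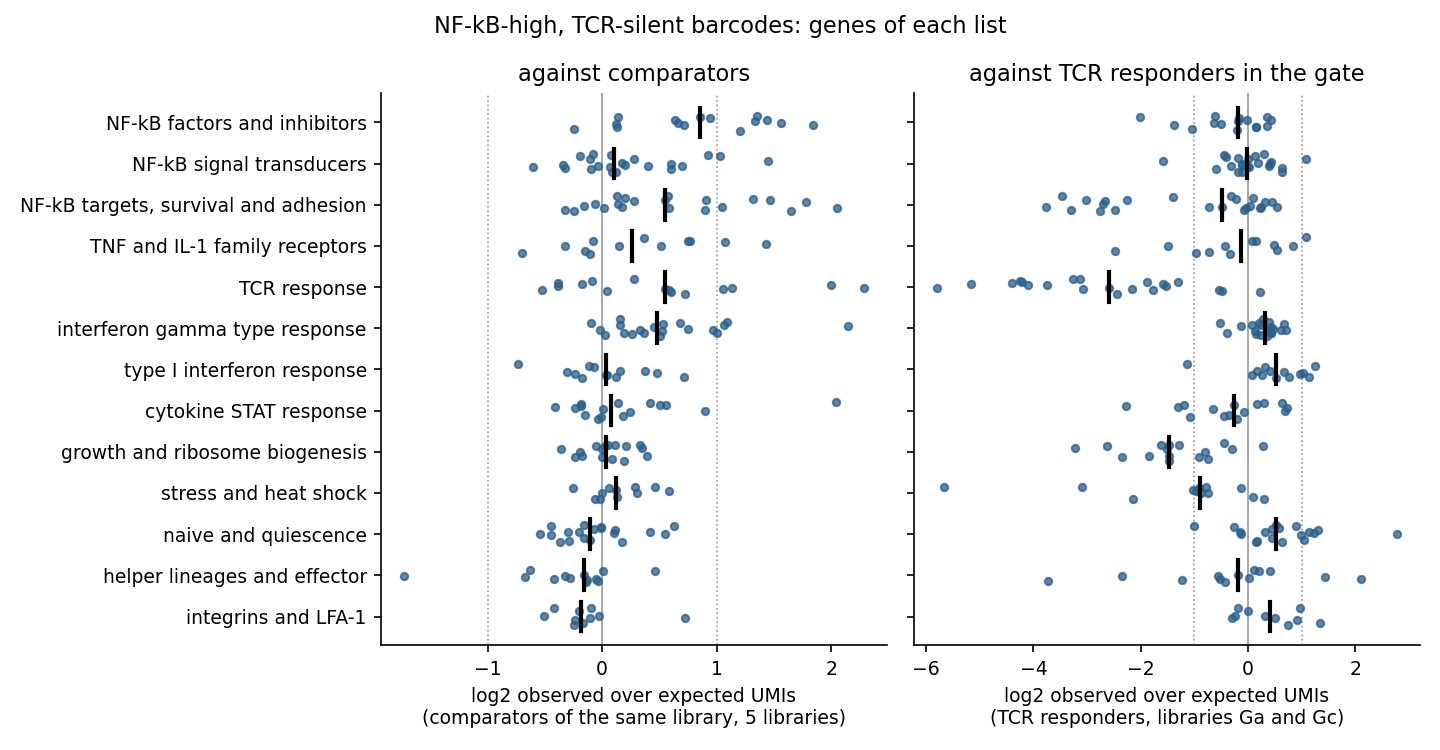
Log2 ratio of observed to expected UMIs for each compared gene of 13 lists, in members without other-type UMIs against comparators of the same library (left) and against TCR responders of Ga and Gc (right). Points are genes, black bars list medians, solid lines 0 and dotted lines 2-fold. The NF-kB factor list has a median of 0.86 on the left and -0.18 on the right, and the TCR response list 0.55 and -2.59.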

How the data were processed

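Per the labels' protocols, libraries were made with the 10x Genomics 5' kit from cultures of splenic OT-II CD4 T cells. The files deposited by the authors hold UMI counts for 32285 genes in 2 matrices. Cell Ranger 6.0.0 and build mm10 stand in the submitters' processing notes, and cellranger 7.1.0 in the file headers. No source used here says whether depth was equalised between libraries. The labels tie 2 samples to the matrix with 3 suffixes and 3 to the matrix with 2, so libraries stayed unassigned and no test was run.

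Members, comparators and gene lists were chosen with earlier results of these data known, and the OT-II segment lists were added after seeing the files. Counts were summed per library and set, and scaled to CPM. Expected UMIs were the comparators' shares times the members' total, per library. No doublet caller was run; barcodes with UMIs of other cell types' markers, or the most UMIs, were left out as alternatives. Thinning drew each barcode to 5000 UMIs. Counts of genes left out the gate genes. Named genes were the gate genes and markers, the listed genes with most UMIs, all compared NF-kB factor and TCR genes, and the 15 highest and 10 lowest ratios alike in direction in Ga and Gc, of which the text names some. Intervals are at 95%, from exact binomial or Poisson limits, and treat UMIs as independent. The code was tested on simulated data. Python 3.11.15, numpy 2.4.6, scipy 1.17.1 and pandas 2.3.3 were used.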

Additional observations from a re-analysis of the deposited data

How the results depend on the processing

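No paired analysis was possible because no library could be tied to a sample and no test was run. The count of 2-fold higher genes (557) was 64 within the members' UMI quartiles, 133 with each barcode weighing equally, 68 with no UMI of 6 further TCR genes, 134 in Cd4 barcodes, 82 without other-type barcodes (77 with erythroid markers not counted, 77 with equal weight too), 99 without the 6% of barcodes with the most UMIs, 117 without the 5 largest members, 866 and 245 with a minimum of 20 and 100, 943 at a fold of 1.5 and 316 without library Gb. The count of lower genes (30) was 72 with at least 3 Bcl3 UMIs, 75 with all 3 partner genes, 49 within quartiles, 62 with equal weight (64 without other-type barcodes as well), 59 without the 6%, 76 and 9 at the minimums of 20 and 100, 261 at 1.5-fold and 49 without Gc. The members (533) were 208 with 3 Bcl3 UMIs, 201 with all 3 partners, 265 within quartiles, 266 in Cd4 barcodes and 279 without Gc. After thinning 167 barcodes met the gate, and these need not be among the 533.

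Over all genes, 64 of 8711 were higher within quartiles, 133 of 10429 with equal weight and 68 of 9634 with no further TCR genes. In Cd4 barcodes 134 of 8882 were higher, and without other-type barcodes 82 of 9775. The list counts below belong beside these. A count given without its number compared shows no gain or loss by itself. Higher NF-kB factors (7 of 16) were 12 at 1.5-fold. Higher NF-kB targets (13 of 25) were 5 of 17 within quartiles and 7 of 22 with equal weight. With no further TCR genes they were 6 of 19, in Cd4 barcodes 8 of 19 and without other-type barcodes 6 of 21. They were 6 without the 6%, 8 at a minimum of 100 and 6 with erythroid markers not counted. With equal weight and no other-type barcodes 5 were higher, and 1 was lower with 3 Bcl3 UMIs. Higher TCR response genes (5 of 17) were 5 of 12 within quartiles, 4 of 16 with equal weight and 3 of 10 with no further TCR genes. They were 7 of 14 in Cd4 barcodes and 4 of 15 without other-type barcodes. With all 3 partners 8 were higher, at a minimum of 20 also 8, and with equal weight and no other-type barcodes 3. At 1.5-fold 1 was lower. Higher interferon gamma genes (2 of 20) were 5 of 20 within quartiles and 3 of 20 with equal weight. With no further TCR genes they were 4 of 20, in Cd4 barcodes 5 of 20 and without other-type barcodes 4 of 20. They were 5 with all 3 partners, 5 without the 6%, 6 at 1.5-fold, 4 without Ga and 1 without Ha. Zeb2 turned to -1.06 within quartiles, -1.71 with no further TCR genes, -1.57 without other-type barcodes, -1.46 without the 6%, -1.88 with erythroid markers not counted, -1.99 without the 5 largest members and -1.76 with equal weight and no other-type barcodes. Tnip3 turned to -0.41 with equal weight and -0.39 without the 5 largest members, and Hbb-bt to 0.014 without other-type barcodes. The cause was not tested. Of 999 other settings of 61 followed genes, 10 reversed, all named here. The 5 largest members held 7.16% of member UMIs over all libraries together, but in Gb alone the largest held 154159 of 492456. Depth limits genes under 40 UMIs and the libraries with 36 and 50 members.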
